A study of Homo sapiens with 18 samples.

Results

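The genes described here are 10 members or targets of the transforming growth factor beta (TGF-beta) superfamily pathway, chosen by name: GDF15, TGFB1, TGFB2, TGFB3, INHBA, FST, TGFBR1, TGFBR2, SMAD7 and TGFBI. All 10 were found by symbol among the 40916 symbols of the count tables. Poly(A)-selected RNA was sequenced in 18 libraries, 3 biological replicates for each of 6 groups. MCF10A is a non-transformed human mammary epithelial line, here expressing a histone H2B-GFP reporter and grown with horse serum, EGF, hydrocortisone, cholera toxin and insulin. HCT116 is a human colorectal carcinoma line, here unlabelled, described as p53-null and grown in McCoy's medium with fetal bovine serum. Each line alone, and a co-culture set up as 50% of each line, was kept without irradiation (NIR) or received 10 Gy (IR). Sample titles give day 2 for the harvest and the series text gives 72 h after irradiation. The medium of the co-culture, the promoter of the reporter and whether the p53-null cells were 1 clone are not given in the sources used here.

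TGF-beta ligands are secreted in latent complexes, are released by integrins and proteases, and signal through the serine/threonine kinase receptors TGFBR2 and TGFBR1 to SMAD2 and SMAD3, which enter the nucleus with SMAD4. Activins, which are dimers of inhibin beta subunits, use other receptors and the same SMADs, and bone morphogenetic proteins use a separate set of SMADs. In epithelial cells the pathway is known for growth arrest, matrix production and epithelial-mesenchymal transition, and GDF15 is a distant member of the superfamily that is secreted by stressed and injured cells.

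The libraries held 25737818 to 40839835 counts. Mitochondrially encoded genes took 5.10% to 6.35% of counts in MCF10A libraries, 8.37% to 8.75% in non-irradiated HCT116 and mixed libraries, and 11.5% to 12.7% in irradiated HCT116 and mixed libraries. Basal mammary markers summed to 10515 to 11241 CPM (counts per 1000000 counts of the library) in MCF10A NIR and to 299 to 314.1 CPM in HCT116 NIR. The intestinal identity of HCT116 rested on few transcripts, since 2 of 8 intestinal markers reached 1 CPM in HCT116 NIR and CDX1 had no counts there. The mixed libraries did not look like equal mixtures: MCF10A-specific genes put the MCF10A share of their RNA at 0.504%, 0.438% and 0.399% without irradiation and at 1.29%, 1.17% and 1.27% after it. In bulk RNA, fewer cells of a type and less RNA per cell cannot be told apart. The rise in share of 0.794 percentage points had an exact two-sided permutation p of 0.1, the smallest that 3 against 3 libraries can give.

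After irradiation, 6 of the 10 genes rose and 0 fell in MCF10A, at an adjusted p below 0.05 in edgeR's quasi-likelihood test (over all genes tested, 55.4% were called, 26.2% higher and 29.2% lower). In HCT116, 4 rose and 1 fell of the 9 tested (52.5% of all genes called, 25.3% higher and 27.2% lower). In the mixed cultures, 7 rose and 1 fell of 10 (49.4% of all genes called, 24% higher and 25.4% lower). The median log2 fold change of the tested members was 0.31 in MCF10A, 0.42 in HCT116 and 0.63 in the mixed cultures, where the median of all tested genes was 0.00, 0.01 and 0.01. Upper-quartile scaling moved the share of higher genes among all calls in MCF10A from 47.4% to 57.5%. Without irradiation the lines differed in all 10 genes, 2 higher and 8 lower in HCT116 (74.8% of all genes called, 38.7% higher and 36.1% lower), and 2 of the lower calls, TGFB1 and TGFBR1, depended on the scaling.

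**Figure D1:**
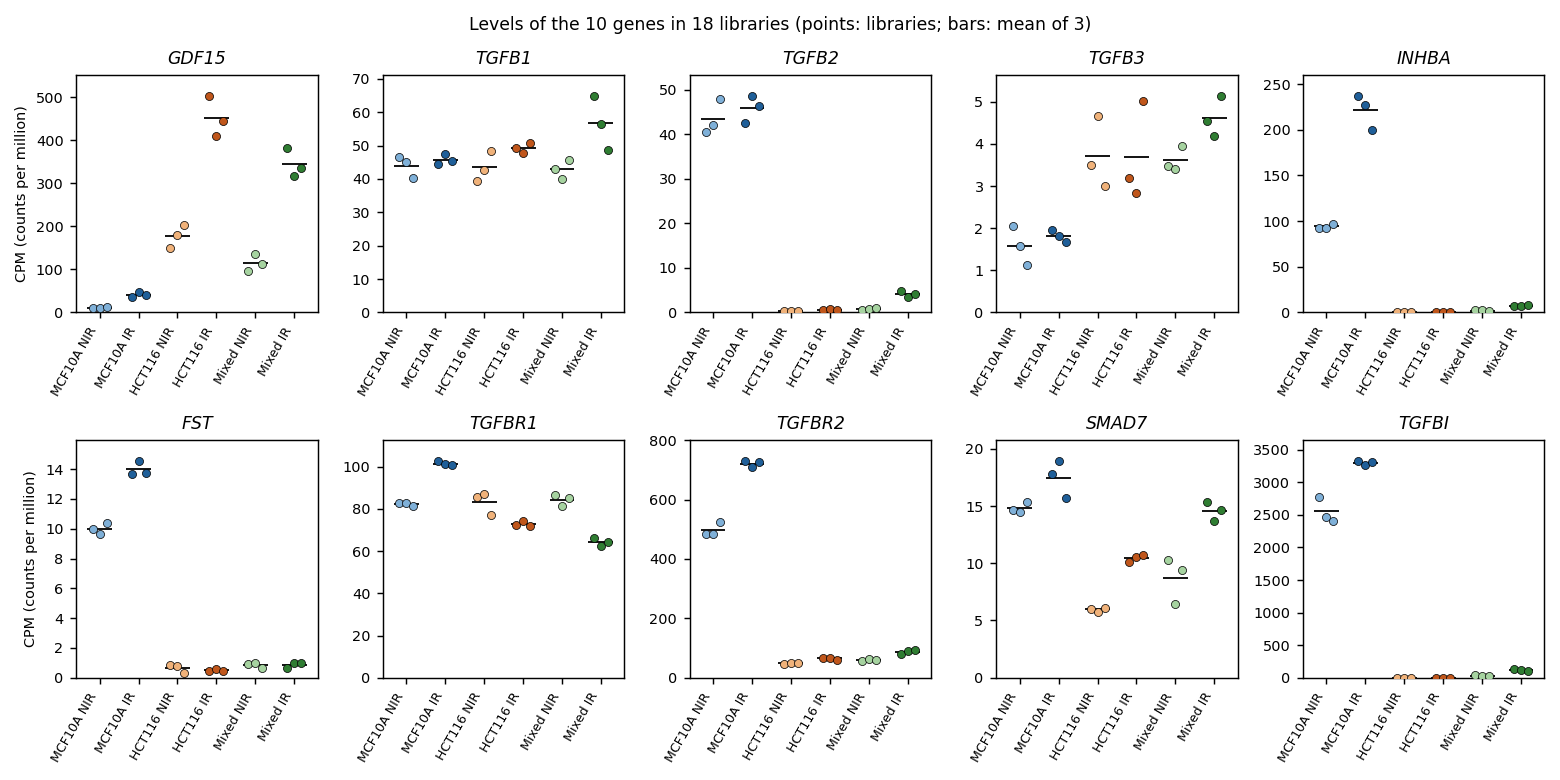
Level of each of the 10 genes in CPM (vertical axis, linear, each panel with its own range) in the 6 groups (horizontal axis). Points are single libraries and bars are means of 3. TGFB2, INHBA, FST, TGFBR2 and TGFBI were high in MCF10A, GDF15 was high in HCT116, and TGFB1 and TGFBR1 stood at close levels in both lines.

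GDF15, the stress-induced cytokine of the family (chr19:18386158-18389176, plus strand, GRCh38.p14), rose after irradiation in both lines and in the mixture, and HCT116 carried more of its RNA than MCF10A. In MCF10A NIR it stood at 9.82, 11.0 and 12.4 CPM, and in MCF10A IR at 35.6, 47.5 and 41.0 CPM. In HCT116 NIR it stood at 149, 180.4 and 202 CPM, and in HCT116 IR at 503, 410.1 and 445 CPM. The mixed cultures lay at 96.0, 136 and 111 CPM without irradiation and at 381, 317 and 335 CPM after it. No 2 of the 6 groups overlapped, and the order from lowest to highest was MCF10A NIR, MCF10A IR, Mixed NIR, HCT116 NIR, Mixed IR and HCT116 IR. The log2 fold change was 1.88 in MCF10A (SE 0.105, adjusted p 8.1e-15), 1.36 in HCT116 (SE 0.087, adjusted p 7.1e-12) and 1.56 in the mixture (SE 0.093, adjusted p 1.2e-11). Between the NIR lines, GDF15 was higher in HCT116 by 3.80 on the log2 scale (SE 0.111, adjusted p 1.8e-15). The response of HCT116 was smaller than that of MCF10A by a log2 difference of -0.60 (SE 0.153, adjusted p 0.0028). Without the second MCF10A IR library, which had the highest GDF15 of its group, that difference was -0.38 with an adjusted p of 0.056. For reference, CDKN1A, a cell cycle inhibitor induced by DNA damage, rose by 1.76 in MCF10A and by 2.33 in HCT116 on the log2 scale.

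The RefSeq sequence of the 250 bases before the GDF15 start site (chr19:18385908-18386157, plus strand, GRCh38.p14) is printed because the gene responded in all 3 cultures. Capitals mark CG dinucleotides, the sites of DNA methylation in mammals, which was not measured here.
GDF15: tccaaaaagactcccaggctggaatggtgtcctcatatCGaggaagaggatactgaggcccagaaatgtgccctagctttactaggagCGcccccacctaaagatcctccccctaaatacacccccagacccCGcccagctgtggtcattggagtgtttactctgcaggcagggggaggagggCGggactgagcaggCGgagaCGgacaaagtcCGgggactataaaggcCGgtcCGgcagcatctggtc
The window held 9 CG dinucleotides, where the median of 35116 RefSeq windows of this length was 11. Searched on both strands, it held 2 GC boxes (GGGCGG, the Sp1-type element, found in 42.6% of all windows) and 1 CAGAC element (the short SMAD-binding sequence, found in 38.0%). It held no match to the AP-1 element TGANTCA (6.57% of windows), the cAMP-response element TGACGTCA (1.65%) or the SMAD palindrome GTCTAGAC (0.182%).

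The 3 TGF-beta ligand genes differed between the lines in kind. TGFB1 (chr19:41330323-41353922, minus strand), the most widely expressed isoform, was present in both lines. It stood at 46.5, 45.0 and 40.4 CPM in MCF10A NIR, at 44.4, 47.6 and 45.4 CPM in MCF10A IR, at 39.3, 42.7 and 48.3 CPM in HCT116 NIR and at 49.3, 47.8 and 50.9 CPM in HCT116 IR. The ranges of these neighbouring groups overlapped, and the log2 fold change was 0.04 in MCF10A (adjusted p 0.68) and 0.19 in HCT116 (adjusted p 0.053). The HCT116 change passed the threshold without the third HCT116 NIR library (0.28, adjusted p 0.0061), with upper-quartile scaling (adjusted p 0.04), with halved counts (0.033) and in DESeq2 (0.049). In the mixed cultures TGFB1 was at 43.0, 39.9 and 45.7 CPM without irradiation and at 64.8, 56.6 and 48.8 CPM after it, groups that did not overlap. That rise was 0.38 on the log2 scale (SE 0.090, adjusted p 0.0014). Between the NIR lines the fitted difference was -0.22 (adjusted p 0.033), while library-size and upper-quartile scaling each gave -0.02. Those scalings moved the median of all genes in that comparison from 0.05 to 0.25, and the share of calls higher in HCT116 from 51.8% to 62.2% and 62.4%. The TGFB1 call between the lines was also lost without the first or second library of MCF10A NIR or of HCT116 NIR (adjusted p 0.11, 0.07, 0.16 and 0.095).

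TGFB2 (chr1:218345336-218444619, plus strand), an isoform with roles in development and epithelial-mesenchymal transition, was a MCF10A transcript. It stood at 40.5, 42.2 and 47.9 CPM in MCF10A NIR and at 42.6, 48.6 and 46.4 CPM in MCF10A IR, which overlapped (log2 fold change 0.06, adjusted p 0.55). HCT116 NIR held 0.32, 0.25 and 0.29 CPM, from 8 to 11 counts a library, and HCT116 IR held 0.55, 0.83 and 0.54 CPM. The difference between the NIR lines was -7.43 on the log2 scale (SE 0.164, adjusted p 3.4e-17). Within HCT116 the groups did not overlap, and the log2 fold change of 1.18 (SE 0.558) had an adjusted p of 0.081, or 0.0023 when the spread was estimated over all 18 libraries. In the mixed cultures TGFB2 went from 0.57, 0.81 and 0.92 CPM to 4.79, 3.55 and 4.22 CPM, a rise of 2.40 (SE 0.270, adjusted p 2.1e-07). The responses of the lines differed by 1.07 (SE 0.327, adjusted p 0.011), a call lost with halved counts and without the second HCT116 IR library (adjusted p 0.059 in each). TGFB3 (chr14:75958097-75983011, minus strand), the isoform of palate and mesenchyme development, was low in all groups. It was at 2.06, 1.58 and 1.13 CPM in MCF10A NIR and at 3.50, 4.66 and 3.00 CPM in HCT116 NIR, higher in HCT116 by 1.02 (SE 0.285, adjusted p 0.0036). Its other libraries ranged from 1.68 to 1.95 CPM in MCF10A IR, 2.84 to 5.01 CPM in HCT116 IR, 3.40 to 3.95 CPM in Mixed NIR and 4.20 to 5.13 CPM in Mixed IR. After irradiation its log2 fold change was 0.16 in MCF10A, -0.03 in HCT116 and 0.33 in the mixture, with adjusted p of 0.68, 0.94 and 0.15, and the first of these signs changed without the third MCF10A NIR library and the second without any 1 of 3.

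INHBA (chr7:41685114-41705406, minus strand) encodes the inhibin beta A subunit, whose homodimer is activin A. It was a MCF10A gene that rose after irradiation, and its traces in HCT116 rose too. MCF10A NIR libraries held 92.8, 92.7 and 97.2 CPM and MCF10A IR libraries 237, 227 and 199.8 CPM, a rise of 1.21 (SE 0.053, adjusted p 5.3e-17). HCT116 NIR libraries held 2 counts each, or 0.058, 0.062 and 0.072 CPM, and HCT116 IR libraries held 12, 24 and 16 counts, or 0.37, 0.59 and 0.62 CPM. The rise in HCT116 was 2.97 on the log2 scale (SE 0.738, adjusted p 0.0017) and led to 0.237% of the MCF10A IR level. In those HCT116 IR libraries the median MCF10A-specific gene was at 0.0919% to 0.164% of its MCF10A level, against 0.00444% to 0.0322% in HCT116 NIR, and the part of carried-over RNA in these traces was not tested. In the mixed cultures INHBA went from 2.29, 2.31 and 1.17 CPM to 7.40, 7.22 and 7.76 CPM, a rise of 1.94 (SE 0.217, adjusted p 2.0e-07). FST (chr5:53480629-53487134, plus strand), which encodes follistatin, the secreted antagonist of activin, was likewise mainly a MCF10A transcript. It rose in MCF10A from 10.0, 9.66 and 10.4 CPM to 13.7, 14.5 and 13.8 CPM, by 0.46 (SE 0.111, adjusted p 0.00085). It stayed between 0.29 and 0.99 CPM in all 12 HCT116 and mixed libraries, with log2 fold changes of -0.35 in HCT116 (adjusted p 0.6) and 0.01 in the mixture (adjusted p 0.98, where the sign changed with no filter on low counts and when any 1 of 3 libraries was left out). The difference of the FST responses between the lines, -0.90 with an adjusted p of 0.049, was lost in 11 of 12 fits that left out a library (values from -0.94 to -0.64) and kept without the third HCT116 NIR library (-1.20, adjusted p 0.0037).

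The 250 bases before the RefSeq start sites of TGFB2 (chr1:218345086-218345335, plus strand) and INHBA (chr7:41703091-41703340, minus strand) are printed because these ligand genes nearly separated the lines. The INHBA window lies inside the span of the gene, which on the minus strand begins at 41705406, and so precedes an internal start site. Capitals mark CG dinucleotides.
TGFB2: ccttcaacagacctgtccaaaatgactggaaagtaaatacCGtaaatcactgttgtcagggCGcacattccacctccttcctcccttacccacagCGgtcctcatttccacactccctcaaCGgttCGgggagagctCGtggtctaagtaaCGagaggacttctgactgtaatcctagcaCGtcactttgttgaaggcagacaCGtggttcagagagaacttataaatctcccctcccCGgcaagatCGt
INHBA: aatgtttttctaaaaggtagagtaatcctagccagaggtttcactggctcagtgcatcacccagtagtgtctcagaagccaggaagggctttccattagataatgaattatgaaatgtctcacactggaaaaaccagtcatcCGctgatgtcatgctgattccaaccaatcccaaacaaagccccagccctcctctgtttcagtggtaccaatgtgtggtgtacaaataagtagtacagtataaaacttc
The TGFB2 window held 11 CG dinucleotides, the median of all windows, and the INHBA window held 1, a number that 14.7% of windows did not exceed. The TGFB2 window had 2 CAGAC elements and no GC box, and the INHBA window had no match to any of these motifs.

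**Figure D2:**
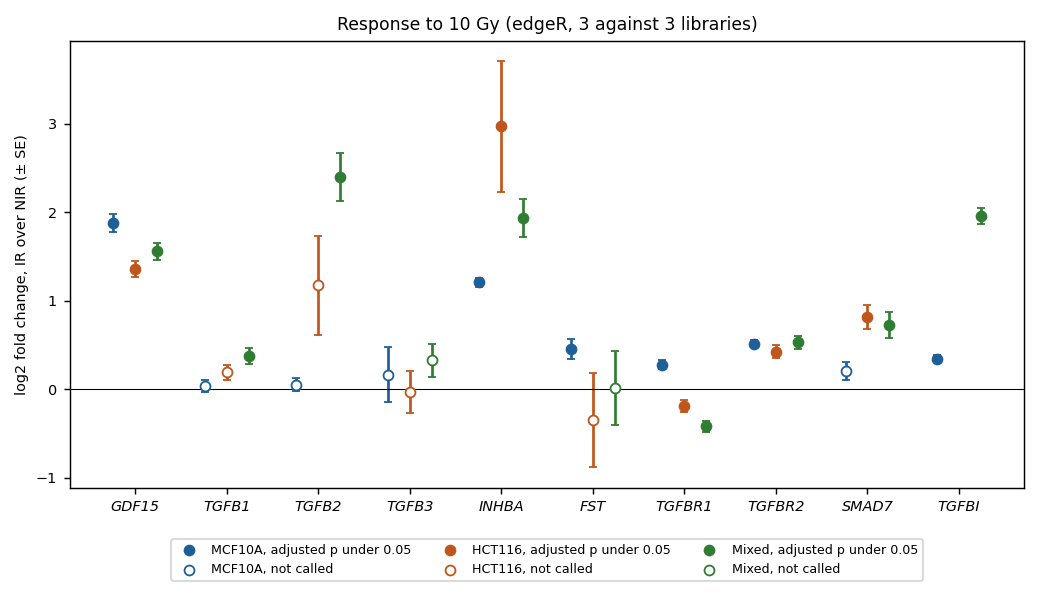
Log2 fold change of each gene after 10 Gy (vertical axis, ± SE) for MCF10A (blue), HCT116 (orange) and mixed cultures (green), 3 against 3 libraries each. Filled points had an adjusted p below 0.05, and TGFBI in HCT116, with no counts in NIR, was not tested and is not drawn. GDF15 and INHBA rose in all 3 cultures, and TGFBR1 rose in MCF10A and fell in the other 2.

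Of the receptor genes, TGFBR2 rose after irradiation in all 3 cultures, while TGFBR1 rose in MCF10A and fell in HCT116 and in the mixture. TGFBR2 (chr3:30606356-30694142, plus strand), the receptor that binds ligand first, stood at 484, 483 and 525 CPM in MCF10A NIR and at 728, 709.7 and 726 CPM in MCF10A IR, a rise of 0.51 (SE 0.039, adjusted p 7.1e-12). In HCT116 it went from 45.9, 49.9 and 50.1 CPM to 66.8, 66.6 and 61.2 CPM, a rise of 0.42 (SE 0.072, adjusted p 3.0e-05). Levels in the mixture were 56.3, 62.7 and 60.3 CPM and, after irradiation, 78.7, 91.1 and 94.4 CPM, a rise of 0.53 (SE 0.073, adjusted p 3.3e-06). TGFBR2 thus rose in each culture without overlap of the groups, and between the non-irradiated lines it was lower in HCT116 (log2 difference -3.55, SE 0.062, adjusted p 1.4e-18). The difference of the responses between lines was -0.17 (adjusted p 0.087), and it passed without the third MCF10A NIR library (adjusted p 0.048) or the first HCT116 NIR library (0.025). TGFBR1 (chr9:99103647-99154192, plus strand), the signalling kinase recruited by TGFBR2, rose in MCF10A from 82.7, 82.9 and 81.3 CPM to 103, 101 and 100.8 CPM, by 0.28 (SE 0.050, adjusted p 2.0e-05). In HCT116 it fell from 85.7, 87.2 and 77.3 CPM to 72.2, 74.2 and 71.8 CPM, with a log2 fold change of -0.19 (SE 0.065, adjusted p 0.018). The HCT116 call was lost without the second NIR library (adjusted p 0.089) and without the third IR library (0.069). The mixture fell from 86.6, 81.6 and 85.1 CPM to 66.0, 62.5 and 64.5 CPM, a log2 fold change of -0.42 (SE 0.063, adjusted p 1.0e-05). Tested directly, the TGFBR1 responses of the lines differed by -0.55 (SE 0.078, adjusted p 3.3e-06). The NIR levels of TGFBR1 overlapped between the lines, and the fitted difference of -0.18 (adjusted p 0.012) became 0.02 under upper-quartile and under library-size scaling.

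SMAD7, the inhibitory SMAD that TGF-beta signalling induces as feedback (chr18:48919853-48950965, minus strand), rose in HCT116 and in the mixture. In MCF10A it stood at 14.7, 14.5 and 15.4 CPM without irradiation and at 17.8, 18.9 and 15.7 CPM after it, without overlap but with an adjusted p of 0.081 (log2 fold change 0.21, SE 0.102). It passed there with upper-quartile scaling (0.30, adjusted p 0.016) and without the third MCF10A IR library (0.28, adjusted p 0.036). In HCT116 it rose from 6.02, 5.78 and 6.12 CPM to 10.1, 10.6 and 10.8 CPM, by 0.82 (SE 0.138, adjusted p 2.8e-05). Levels in the mixture went from 10.3, 6.40 and 9.40 CPM to 15.4, 13.7 and 14.7 CPM, by 0.73 (SE 0.142, adjusted p 0.00021). The response was larger in HCT116 than in MCF10A by 0.53 (SE 0.162, adjusted p 0.012), and the NIR level was lower in HCT116 (log2 difference -1.51, SE 0.127, adjusted p 5.6e-09).

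TGFBI (chr5:136028988-136063818, plus strand), a secreted matrix protein named for its induction by TGF-beta, was the member that separated the lines most. MCF10A NIR libraries held 2779.7, 2475 and 2411 CPM, and MCF10A IR libraries held 3320.5, 3269 and 3308 CPM, a rise of 0.35 (SE 0.039, adjusted p 1.4e-08). HCT116 NIR libraries held no TGFBI counts, which allows up to 0.0318 CPM (3 counts over the 3 libraries together, counting error only), and HCT116 IR libraries held 8, 6 and 8 counts, or 0.24, 0.15 and 0.31 CPM. Against that floor TGFBI was at least 80377-fold lower in non-irradiated HCT116 than in non-irradiated MCF10A and at least 7.36-fold higher in HCT116 IR than in HCT116 NIR, or at least 40189-fold and at least 3.68-fold if mates were counted one by one. The HCT116 IR level was 0.00709% of that in MCF10A IR, below the median MCF10A-specific gene in the same libraries. In the mixed cultures TGFBI went from 34.5, 27.7 and 31.5 CPM to 138, 122 and 111 CPM, a rise of 1.96 (SE 0.086, adjusted p 1.3e-13).

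The TGFBI window before the start site (chr5:136028738-136028987, plus strand, GRCh38.p14) is shown because the gene had no counts in HCT116 NIR. Capitals mark CG dinucleotides.
TGFBI: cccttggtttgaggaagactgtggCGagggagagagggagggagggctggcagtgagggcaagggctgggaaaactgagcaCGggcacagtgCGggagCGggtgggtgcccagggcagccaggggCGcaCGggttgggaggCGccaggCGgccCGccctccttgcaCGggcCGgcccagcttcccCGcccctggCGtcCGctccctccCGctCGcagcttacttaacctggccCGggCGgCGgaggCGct
It held 20 CG dinucleotides, as many or more than which were found in 32.4% of windows, and 3 GC boxes.

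Per kilobase of annotated exon, so that genes can be compared, TGFBI led in MCF10A NIR at 888.8 CPM per kb, followed by TGFBR2 at 105.7, TGFB1 at 15.88 and INHBA at 14.29 CPM per kb. In HCT116 NIR, GDF15 led at 147.6 CPM per kb, followed by TGFB1 at 15.68, TGFBR1 at 12.61 and TGFBR2 at 10.34 CPM per kb. After irradiation GDF15 reached 377.1 CPM per kb in HCT116 and 34.46 CPM per kb in MCF10A. In the irradiated mixture TGFBI, at 42.97 CPM per kb, ranked behind GDF15 at 287 CPM per kb.

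The mixed libraries were compared with HCT116 alone, since HCT116 RNA made up most of them. Without irradiation, INHBA, TGFBR2 and TGFBI were higher and GDF15 was lower in the mixture, 4 of 10 members (2.04% of all genes called, 0.887% higher and 1.15% lower). After irradiation 5 were higher, TGFB2, INHBA, TGFBR2, SMAD7 and TGFBI, and 2 were lower, GDF15 and TGFBR1 (8.56% of all genes called, 5.08% higher and 3.48% lower). TGFBI was at least 983-fold higher in Mixed NIR than in HCT116 NIR, or at least 491-fold with counts halved, and higher by 9.09 on the log2 scale after irradiation (SE 0.148, adjusted p 1.6e-27). INHBA was higher by 4.84 without irradiation (SE 0.559, adjusted p 4.6e-05) and by 3.81 after it (SE 0.235, adjusted p 5.2e-13). TGFB2 was higher by 2.66 after irradiation (SE 0.280, adjusted p 5.4e-08), and its difference of 1.43 without irradiation had an adjusted p of 0.17, or 0.0047 with the spread estimated over all 18 libraries. These 3 genes are high in MCF10A. The basal mammary markers summed to 299 to 314.1 CPM in HCT116 NIR and to 315 to 337 CPM in Mixed NIR. Those ranges nearly touched. After irradiation the sums lay further apart, at 379 to 416 CPM in HCT116 IR and 587 to 670.2 CPM in Mixed IR. All 10 markers were at 1 CPM or more in Mixed IR. The part of the MCF10A share, and of its rise after irradiation, in these differences and in the responses of the mixture was not tested.

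GDF15 was lower in the mixture than in HCT116 by a log2 difference of -0.61 without irradiation (SE 0.111, adjusted p 0.0043) and of -0.40 after it (SE 0.064, adjusted p 6.3e-05). The first of these was lost in DESeq2 (adjusted p 0.054) and without the first Mixed NIR library (-0.50, adjusted p 0.056), a library without which 2 rather than 4 members were called. TGFBR2 was higher in the mixture by 0.43 after irradiation (SE 0.066, adjusted p 4.1e-05), while its NIR difference of 0.31 (adjusted p 0.035) was lost when any of the 6 libraries was left out. SMAD7 was higher after irradiation by 0.47 (SE 0.112, adjusted p 0.0065), and its NIR difference of 0.55 had an adjusted p of 0.11, or 0.024 without the second Mixed NIR library. TGFBR1 after irradiation, at -0.19 with an adjusted p of 0.048, was lost when any of the 6 libraries was left out. TGFB1 after irradiation differed by 0.19 (adjusted p 0.15), or by 0.30 without the third Mixed IR library (adjusted p 0.026).

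A sum of the monoculture levels, weighted by the estimated RNA share, gives the level of a blend of the 2 monocultures. TGFBI stood at 31.2 ± 3.40 CPM in Mixed NIR (SD, n = 3), 2.74 times the sum of 11.4 CPM, and at 124 ± 13.5 CPM in Mixed IR, 3.00 times the sum of 41.2 CPM. INHBA was 3.96 times its sum without irradiation and 2.28 times after it, and TGFB2 was 1.60 and 3.48 times its sum. All 3 genes belonged to the set from which the share was estimated, and that set was wide. As a percent of the MCF10A level, its middle range in Mixed NIR was 0.196% to 0.986% (quartiles), where TGFBI stood at 1.22%, INHBA at 2.04% and TGFB2 at 1.76%. In Mixed IR the quartiles were 0.544% and 2.35%, and TGFBI stood at 3.74%, INHBA at 3.37% and TGFB2 at 9.13%. The top decile of the set began at 1.89% in Mixed NIR and at 4.18% in Mixed IR. Of these genes, only INHBA reached it in Mixed NIR and only TGFB2 in Mixed IR. GDF15 lay below its sum, at 0.649 times in Mixed NIR and 0.770 times in Mixed IR, and all 3 libraries of each group were under it. SMAD7 was 1.45 and 1.38 times its sum and TGFBR2 1.18 and 1.21 times, with all 3 libraries above it in both groups. TGFB1 and FST overlapped their sums in both groups. TGFBR1 and TGFB3 overlapped theirs in Mixed NIR, and in Mixed IR TGFBR1 lay below its sum (0.880 times) and TGFB3 above it (1.26 times). The sum was built from monoculture means and carries none of the spread between monoculture libraries. For TGFB3, HCT116 IR libraries ranged from 2.84 to 5.01 CPM and overlapped Mixed IR libraries, at 4.20 to 5.13 CPM. The comparison with the sum was not tested.

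**Figure D3:**
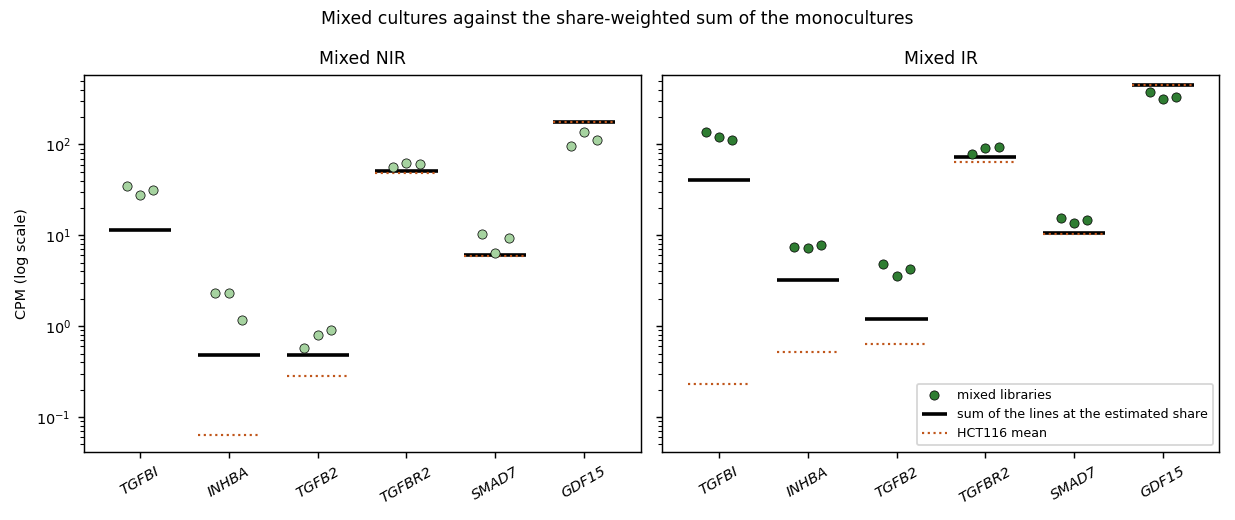
Level in CPM (vertical axis, log scale) of 6 genes in the mixed libraries (points, 3 a group), with the share-weighted sum of the monocultures (black bar) and the HCT116 mean of the same treatment (dotted line, absent for TGFBI in NIR, which had no counts). TGFBI, INHBA and TGFB2 lie above the sum and GDF15 below it in both groups.

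Differences in response were tested directly. Between HCT116 and MCF10A, 4 members were called higher and 3 lower in HCT116 (37.3% of all genes called, 15.4% higher and 21.9% lower), where the median of all tested genes was -0.10 on the log2 scale. The higher ones were TGFB2, INHBA (1.68, SE 0.487, adjusted p 0.0076), SMAD7 and TGFBI, and the lower ones were GDF15, FST and TGFBR1. The fitted value of TGFBI there, 5.32, rests on a group without counts and is not a size. Between the mixture and HCT116, which share the HCT116 libraries with that comparison, edgeR called 0 of 10 members and DESeq2 0 (0.83% of all genes called, 0.681% higher and 0.149% lower). At an unadjusted p below 0.05 there were 3 members, TGFB2, TGFBR1 and TGFBI.

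A list of 72 other genes of the pathway was described beside the members. Of all genes tested after irradiation, 26.2% rose and 29.2% fell in MCF10A, 25.3% and 27.2% in HCT116, and 24% and 25.4% in the mixture. In MCF10A 35 rose and 11 fell of 61 tested after irradiation (median log2 fold change 0.24, where that of all genes was 0.00), in HCT116 24 rose and 22 fell of 64 (median 0.09, all genes 0.01), and in the mixture 32 rose and 18 fell of 67 (median 0.20, all genes 0.01). Among the target genes, 14 rose and 3 fell of 18 tested in MCF10A, 8 rose and 5 fell of 19 in HCT116, and 14 rose and 2 fell of 20 in the mixture. FN1, the matrix protein fibronectin, rose in MCF10A from 1325 ± 41.1 to 5769 ± 362 CPM (SD, n = 3), by 2.10 on the log2 scale (SE 0.038, adjusted p 4.8e-25). Fibroblast markers summed to 121 to 133 CPM in MCF10A NIR and 248 to 262 CPM in MCF10A IR, with 2 of 8 at 1 CPM or more and COL3A1 without counts. That list shares COL1A1 with the targets, and its part in the target counts was not tested. In HCT116 the largest rise among the targets was that of COL5A1, a fibrillar collagen chain, by 3.84 (SE 0.308, adjusted p 3.5e-10).

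Among the other ligands, BMP6, a bone morphogenetic protein, rose in MCF10A by 2.51 (SE 0.212, adjusted p 5.2e-11), from 1.47 ± 0.342 to 8.49 ± 1.74 CPM. The HCT116 response of BMP6 was lower than that of MCF10A by a log2 difference of -4.64 (SE 0.390, adjusted p 7.6e-10). LTBP2, a latent TGF-beta binding protein of the matrix, rose by 1.85 in HCT116 and by 1.58 in the mixture. Of the other receptors, 9 were tested in each culture, and 3 rose and 4 fell in MCF10A, 1 rose and 6 fell in HCT116, and 1 rose and 6 fell in the mixture. These counts were not tested against each other. TGFBR3, the co-receptor betaglycan, fell in MCF10A (log2 fold change -0.84), in HCT116 (-1.15) and in the mixture (-0.76). ACVR2B, an activin receptor, fell in all 3 as well (-0.76, -0.29 and -0.39), as did ID1, a target of bone morphogenetic protein signalling (-0.61, -0.85 and -0.55). Among the genes of at least 5 CPM, the lowest values in HCT116 were those of SMAD9, a SMAD of the bone morphogenetic protein branch (-1.68), CHRD, the antagonist chordin (-1.66), and ACVR1C, the receptor ALK7 (-1.16). SMAD9, CHRD and ACVR1C fell in the mixture as well (-1.06, -1.11 and -0.74). Below that level LRRC32, which anchors latent TGF-beta at the cell surface (-2.82, from 1.18 CPM), BMP6 (-2.06, from 3.50 CPM) and the ligand NODAL (-2.02, from 1.45 CPM) fell further in HCT116, and were added here after their values were seen.

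Between the NIR lines 26 of the other pathway genes were higher and 33 lower in HCT116, of 67 tested, where 38.7% and 36.1% of all genes were. BMP7, at 14.2 CPM, and CDKN2B, the cell cycle inhibitor p15 at 12.8 CPM, had counts in HCT116 NIR and none in MCF10A NIR, while CHRD was at 10.5 CPM in HCT116 NIR and at 0.0114 CPM in MCF10A NIR. BMP2, at 11.6 CPM in MCF10A NIR, had no counts in HCT116 NIR, and COL4A1 and BMPR1B were lower there (log2 differences -10.04 and -8.71). In the mixture against HCT116 without irradiation, 7 were higher and 2 lower of 65, where 0.887% and 1.15% of all genes were. After irradiation 21 were higher and 4 lower of 66, where 5.08% and 3.48% of all genes were. ITGB6, the integrin subunit that with ITGAV releases latent TGF-beta, was higher by 4.67 (SE 0.428, adjusted p 8.9e-06) and by 6.59 (SE 0.321, adjusted p 2.0e-15). PMEPA1, a TGF-beta target that restrains SMAD signalling, was higher by 2.33 and 3.52. FN1 was higher by 0.98 without irradiation, and COL4A1, a basement membrane collagen, by 4.68 after it. JUNB (-0.64) and ID2 (-0.36) were lower without irradiation, the ID2 call being lost without the first HCT116 NIR library or without replicate 1 or replicate 3 of Mixed NIR (adjusted p 0.10, 0.14 and 0.080). After irradiation COL5A1 (-0.62), BMP4 (-0.28) and SMURF2 (-0.18) were lower, and all 3 calls were lost with the spread estimated over all 18 libraries (adjusted p 0.35, 0.11 and 0.19).

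Against the share-weighted sum, ITGB6 was at 5.36 ± 1.16 CPM in Mixed NIR, 12.3 times the sum of 0.437 CPM, and at 10.0 ± 1.87 CPM in Mixed IR, 5.73 times the sum of 1.75 CPM (SD, n = 3). PMEPA1 was 4.26 and 5.11 times its sum and FN1 1.82 and 3.15 times. These genes were named for being higher in the mixture than in HCT116, which favours values above the sum. ITGB6 also met the rule for the genes from which the share was estimated. Other pathway genes high in MCF10A lay on both sides of their sums. In Mixed NIR and Mixed IR, COL4A1 was at 3.19 and 6.43 times, LTBP1 at 0.886 and 1.26 times and ITGB8 at 0.704 and 0.823 times. FN1 also had the largest response difference between mixture and HCT116 among the pathway genes, 2.09 (SE 0.145, adjusted p 1.2e-09), ahead of the cytoskeletal genes TPM1 (1.11) and TAGLN (0.96, adjusted p 0.014). The TAGLN call was lost without the first HCT116 NIR, the second HCT116 IR, the first Mixed IR or the third Mixed IR library (adjusted p 0.050, 0.064, 0.061 and 0.057). In all, 6 of 67 pathway genes were called in that comparison, each higher in the mixture (0.83% of all genes called, 0.681% higher and 0.149% lower). Without the first HCT116 NIR, the second HCT116 IR or the first Mixed IR library, 3 were called. Between HCT116 and MCF10A, 13 of 69 responses were higher and 28 lower, where 15.4% and 21.9% of all genes were. Among genes of at least 5 CPM in a group, COL4A1 (1.87), LTBP2 (1.26) and ADAM12 (0.93) led the first and BMP6 (-4.64), CHRD (-3.53) and FN1 (-2.99) the second. INHBB, an activin subunit below that level, was also called lower, with 0 counts in MCF10A NIR, 18 in MCF10A IR and a fall from 1.26 to 0.584 CPM in HCT116, and its fitted value is not a size. The COL4A1 value rests on traces in HCT116, at 0.132 CPM in NIR and 0.378 CPM in IR, where MCF10A held 120.3 and 89.1 CPM. The part of carried-over RNA in these traces was not tested. The CHRD value rests on traces in MCF10A of at most 0.0735 CPM. Its call was lost with no filter on low counts (adjusted p 0.055) and in 4 of 12 fits that left out a library (adjusted p 0.083 to 0.16). The ADAM12 call (adjusted p 0.049) was lost in DESeq2 (adjusted p 0.16), with upper-quartile factors (0.052), with the replicate block (0.079) and in 8 of 12 fits that left out a library, where its value ranged from 0.58 to 1.73.

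**Figure D4:**
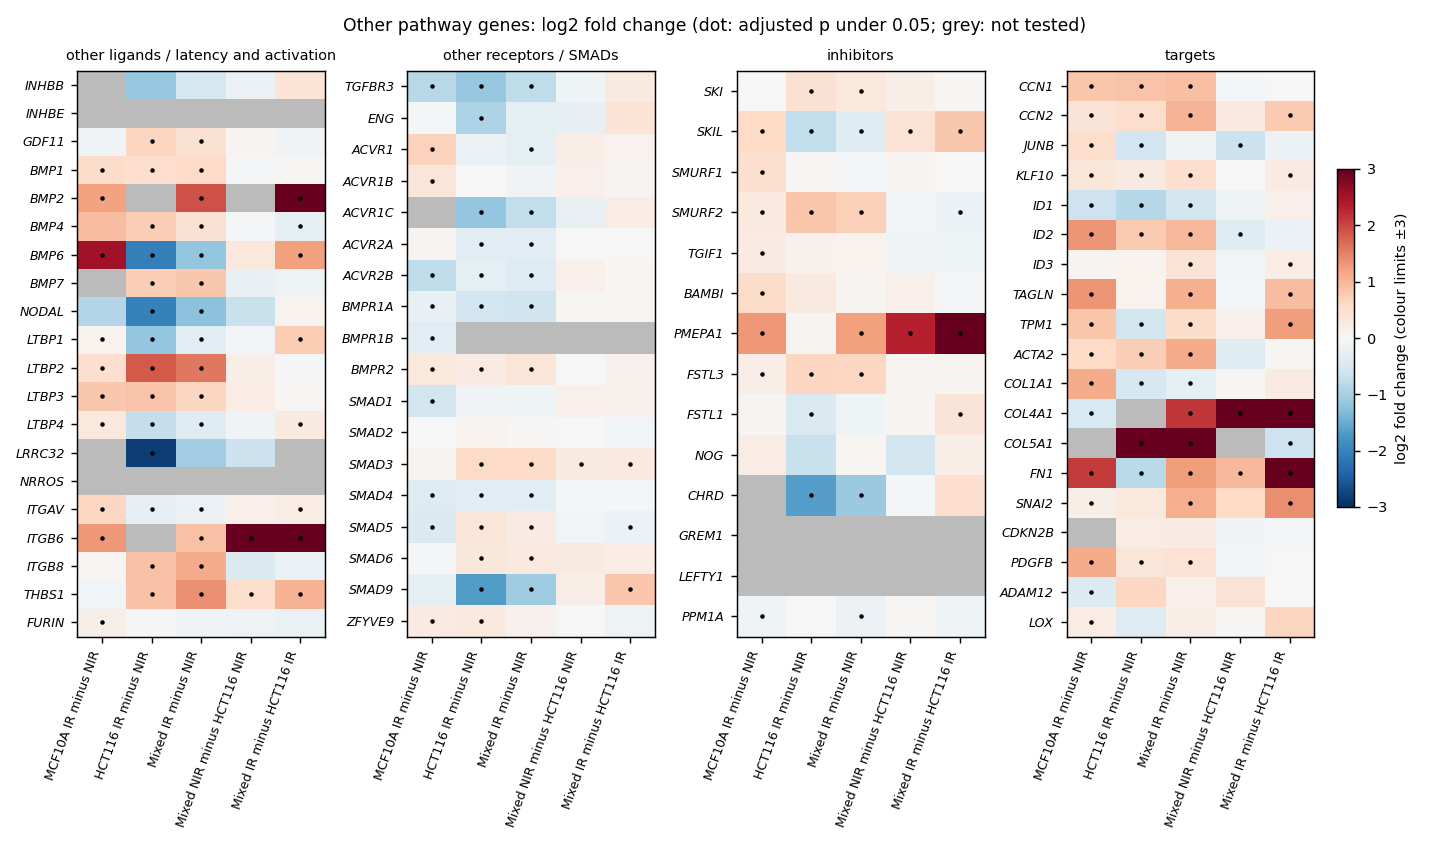
Log2 fold change (colour, limits ±3) of the other pathway genes (rows, grouped by role, with 1 gene of the list not drawn) in 5 comparisons (columns). Dots mark an adjusted p below 0.05 and grey cells were not tested. The target panel is mostly red for MCF10A and for the mixture after irradiation, where 14 of the 20 listed targets were called higher in each.

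The genes most like a member in level were sought by Pearson's r of log2(CPM + 1) over the 18 libraries, among 10914 genes. The libraries share line and treatment, so r mainly ranks genes by that pattern and carries no test. GDF15 was closest to EHF (r 0.996), GPR173 (0.991) and RAB6B (0.991). TGFB2 was closest to KRT6A (0.995), GBP1 (0.995) and DSG3 (0.995), and INHBA to KRT17 (0.996), KCNJ15 (0.995) and DSG3 (0.995). TGFBI was closest to TNC (0.993), ITGB6 (0.987) and PMEPA1 (0.983), which like it were high in MCF10A, at 1.89 CPM or less in HCT116 NIR, and at 3.07 to 9.51 CPM in Mixed NIR.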

How the data were processed

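The authors deposited 1 table of raw counts per gene symbol for each of 18 libraries, without normalization, and the values are whole numbers. The labels name the Illumina Stranded mRNA Prep, and the submitters' processing notes name fastp, STAR, featureCounts and GRCh38. Versions, the annotation and the strand and mate settings of counting are not given in the sources used here. Reads of TGFB2, TGFB3 and INHBA and of their antisense genes may therefore not be told apart, and 68.3% of counts from 1 to 10 were even, so fits with halved counts were run.

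Each comparison was fitted on all genes of the compared groups with edgeR 4.0.16 in R 4.3.3 (TMM, filterByExpr, quasi-likelihood F test, two-sided), with Benjamini-Hochberg adjustment over all genes tested and a threshold of 0.05. Standard errors were derived from the fold change and F. CPM is a gene's count per 1000000 counts of its library. Fits with DESeq2 1.42.0, other scalings, no filter, halved counts, a replicate block, all 18 libraries and each library left out were compared. On simulated data for MCF10A after irradiation (15154 genes), 82.7% of 98 genes changed by 1 and 97.9% of 97 changed by 2 on the log2 scale were recovered. For the response difference between the lines (18179 genes), the shares were 79.2% of 96 and 91.9% of 99. The simulation gave every gene the same dispersion and changed few genes, so these shares are not the power of the comparisons made here.

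The MCF10A share of RNA was a/(a+b), with a and b the median ratios of mixed to monoculture CPM over genes with a mean of at least 20 CPM in a line that stayed below 1 CPM in each library of the other line. Positions and promoter windows are RefSeq's for GRCh38.p14, matched by symbol: all 10 members had a window, 6 of them exactly 1. Exon lengths are those of GENCODE's basic annotation. In every comparison all 10 members were named, with up to 3 called pathway genes in each direction of at least 5 CPM and, except for response differences, without overlap of the groups. The 3 genes most like GDF15, TGFB2, INHBA and TGFBI were taken among genes of at least 10 CPM in a group. Some genes that this rule named, and 1 promoter motif searched, are not reported here. The members and lists were chosen with earlier results of these data known. The labels call the replicates biological and do not say whether they came from separate cultures, so p-values measure the spread between these libraries.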

Additional observations from a re-analysis of the deposited data

Results flagged for a closer look

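These results are listed because the response to 10 Gy differed between cultures by a direct test in edgeR, given as log2 differences. Between HCT116 and MCF10A, the members with a larger value in HCT116 were TGFB2 (1.07), INHBA (1.68), SMAD7 (0.53) and TGFBI (5.32, a fitted value over a group without counts). Those with a smaller value were GDF15 (-0.60), FST (-0.90) and TGFBR1 (-0.55). TGFBR1 is the member that rose in one line and fell in the other. Of the other pathway genes named, COL4A1 (1.87), LTBP2 (1.26) and ADAM12 (0.93) were larger in HCT116, and BMP6 (-4.64), CHRD (-3.53) and FN1 (-2.99) were smaller. Between the mixture and HCT116 these were FN1 (2.09), TPM1 (1.11) and TAGLN (0.96). The COL4A1 value rests on traces in HCT116, and the CHRD value on traces in MCF10A. The calls of TAGLN and CHRD were each lost in 4 of 12 fits that left out a library, and the ADAM12 call in 8 of 12. The FST call was lost in 11 of 12, and the GDF15 and TGFB2 calls in 1 of 12 each.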

How the results depend on the processing

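Of 548 fits of member results under other settings, 521 kept direction and side of the threshold, 13 lost a call, 10 gained one and 4 changed sign. Of 594 fits without a library the counts were 541, 32, 6 and 15. The sign changes were FST in Mixed IR minus NIR with no filter (-0.0043), TGFBR1 between the NIR lines with upper-quartile scaling (0.024) and library size only (0.021), and TGFB1 in Mixed NIR minus HCT116 NIR with all 18 libraries in the fit (0.011). Genes called over the whole table in Mixed NIR minus HCT116 NIR were 335, but 576 in DESeq2, 671 with no filter, 716 with the replicate block and 768 with all 18 libraries, and 145 to 313 without a library. In Mixed IR minus HCT116 IR they were 1467, with 2220 under the replicate block and 866 to 1312 without a library. For the response difference of mixture and HCT116 they were 150, with 327 in DESeq2, 336 with no filter and 64 to 197 without a library, and pathway genes were 6, with 10 under no filter and 3 to 7 without a library. Members called in Mixed NIR minus HCT116 NIR were 2 to 4 without a library.

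Without a library, values that crossed 0 ranged from -0.022 to 0.076 (TGFB1) and -0.025 to 0.39 (TGFB3) in MCF10A IR minus NIR, -0.29 to 0.17 (TGFB3) in HCT116 and -0.16 to 0.19 (FST) in the mixture. In Mixed NIR minus HCT116 NIR they ranged from -0.078 to 0.091 (TGFB1), -0.15 to 0.16 (TGFB3) and -0.0091 to 0.066 (TGFBR1). For response differences they ranged from -0.53 to 0.0038 (TGFB3, HCT116 minus MCF10A) and -0.28 to 0.019 (SMAD7, mixture minus HCT116). The cause of these changes was not tested. Same-numbered deviations correlated at -0.0761 to 0.121 over 15 pairs of groups. The highest values were those of HCT116 and the mixture of the same treatment, 0.121 for NIR and 0.108 for IR. In these comparisons the replicate block raised the genes called from 335 to 716 and from 1467 to 2220. Whether replicate numbers pair libraries there cannot be told from these values. A replicate block changed the call of 4 of 79 member results: TGFB1 between the NIR lines (adjusted p 0.061), SMAD7 in Mixed NIR minus HCT116 NIR (0.049), TGFB1 in Mixed IR minus HCT116 IR (0.047) and the FST response difference of the lines (0.064). Depth limits TGFBI, INHBA, TGFB2 and FST in HCT116, which rest on 0 to 34 counts a library.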
